A study of Mus musculus with 8 samples.

Results

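The lymphatic-rich spots of mouse intestine were capture areas of a tissue section in which the RNA of 5 lymphatic endothelial marker genes made up the largest share of all RNA. Sections 10 µm thick from small and large intestine of C57BL/6 mice, titled WT, had been laid on Visium slides, on which each spot collects the RNA of a small region that can hold several cells of different types. In every section, spots with at least 500 unique molecular identifiers (UMIs, counted RNA molecules) were ranked by the share of their UMIs that came from Lyve1, Prox1, Ccl21a, Mmrn1 and Flt4. The top 5% were taken where they also held at least 2 UMIs of these genes. This gave 411 of 8938 spots, 91 of 2094 in small intestinal section 1, 107 of 2571 in small intestinal section 2, 105 of 2094 in large intestinal section 1 and 108 of 2179 in large intestinal section 2. Each tissue's 2 sections are technical duplicates by the labels, and the age and number of mice are not given in the sources used here. The series also held 1 library of sorted cells from each tissue, which was used for a comparison near the end. It enriched LGR5+ stem cells and CD31+ PDPN+ LYVE1+ lymphatic endothelial cells, from C57BL/6 mice and from Lgr5-eGFP-ires-CreERT2 mice on that background.

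Lymphatic vessels return fluid and immune cells from tissue to the blood, and in the small intestine the lacteals, the lymphatic capillaries of the villi, also carry absorbed fat away as chylomicrons. The lymphatic network of the gut wall runs through the villi, the mucosa around the crypt bases, the submucosa and the muscle layer. Prox1 is the transcription factor that sets lymphatic identity, Flt4 is the receptor for the growth factor encoded by Vegfc, Lyve1 is a hyaluronan receptor, Mmrn1 is a secreted multimerin, and Ccl21a is the chemokine that draws Ccr7-positive immune cells into lymphatic vessels. Lyve1 is also found on some tissue macrophages, so that a single marker does not define the cell type.

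The 5 genes lie in GRCm38 (mm10) at chr7:110850607-110862953 for Lyve1, chr1:190118035-190170827 for Prox1, chr4:42772860-42773991 for Ccl21a, chr6:60944317-60989378 for Mmrn1 and chr11:49609679-49652739 for Flt4. The 4 sections held 24356162 to 43833127 deposited UMIs. The rule divided by the total UMIs of a spot, so depth is given beside it. The median lymphatic-rich spot held 7647, 7055, 11031 and 11122 UMIs in small intestinal sections 1 and 2 and large intestinal sections 1 and 2, against 10307, 9095, 19811 and 20470 UMIs in the other spots. All values below are given in this order of sections. Where at least 2 marker UMIs were asked for with no ranking, the medians were 10652, 11151, 12713.5 and 15017 UMIs. The other spots then had 10131, 8860, 21289.5 and 21865. The part of the division in the depth of the lymphatic-rich spots was not tested. Barcodes name positions on the slide, and 524 of them occurred in all 4 sections.

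The values that chose the spots are given as a description. The marker genes held 6 UMIs in the median lymphatic-rich spot of either small intestinal section, and 17 and 13.5 UMIs in those of the large intestinal sections. The lowest marker share that was taken was 3.68, 3.99, 8.14 and 8.43 per 10000 UMIs, and the highest share left out among spots with at least 2 marker UMIs was 3.67, 3.97, 8.09 and 8.38 per 10000. The line between lymphatic-rich and other spots was therefore one through a continuous range, and it lay at a higher share in the large intestine. Ccl21a gave most of the marker UMIs of the lymphatic-rich spots, from 56.6% in small intestinal section 2 to 72.1% in large intestinal section 2. Mmrn1 gave 15.6% to 24.4%, Flt4 3.64% to 10.6%, Lyve1 6.28% to 7.88% and Prox1 0.624% to 2.38%. All 5 markers were seen together in 17 of the 411 spots, 4 of them in 102 spots, 3 in 161 spots, 2 in 99 spots and 1 in 32 spots. The copies Ccl21b and Ccl21c held no UMI and a second identifier named Ccl21a held 1, but these near-identical genes cannot be told apart with certainty by short reads.

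Whether the label holds was asked with each marker in turn, by choosing spots with the other 4 genes and reading the gene left out. Levels are CPM, the UMIs of a gene per 1000000 UMIs of all spots of a class in a section, and differences are log2 ratios from edgeR's quasi-likelihood test with the section as a block. The p-values were adjusted by the Benjamini-Hochberg method over all genes tested. They measure the spread between sections, which are technical duplicates, so they are too small as statements about mice. In spots, fewer cells of a type and less RNA per cell cannot be told apart.

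Lyve1 reached 44.7, 71.7, 131 and 95.5 CPM in spots chosen without it, against 3.14, 2.78, 6.70 and 7.04 in the other spots. Each lymphatic-rich value lay above every other-spot value, by a log2 difference of 3.75 ± 0.18 (SE, 4 sections, adjusted p = 8.17e-09). Ccl21a was higher by 4.34 ± 0.16 (adjusted p = 4.05e-12), with 465, 532, 1225 and 885 CPM against 16.5, 16.6, 42.6 and 45.8. Mmrn1 was higher by 4.42 ± 0.16 (adjusted p = 1.47e-09), and Flt4, the receptor, by 3.84 ± 0.19 (adjusted p = 1.68e-08). Prox1 was the weakest of the 5 at 2.43 ± 0.45 (adjusted p = 0.000572). It stood at 3.67, 19.0, 15.0 and 7.14 CPM against 3.27, 2.99, 0.799 and 0.705, so that in small intestinal section 1 the 2 classes were nearly equal, with 3 UMIs in the lymphatic-rich spots. The small intestine had more Prox1 RNA in its other spots than the large intestine. Spots chosen by 4 genes thus held more of the gene left out in 4 of 4 sections for Lyve1, Ccl21a, Mmrn1 and Flt4. For Prox1 this was so by a clear margin in 3 sections.

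**Figure D1:**
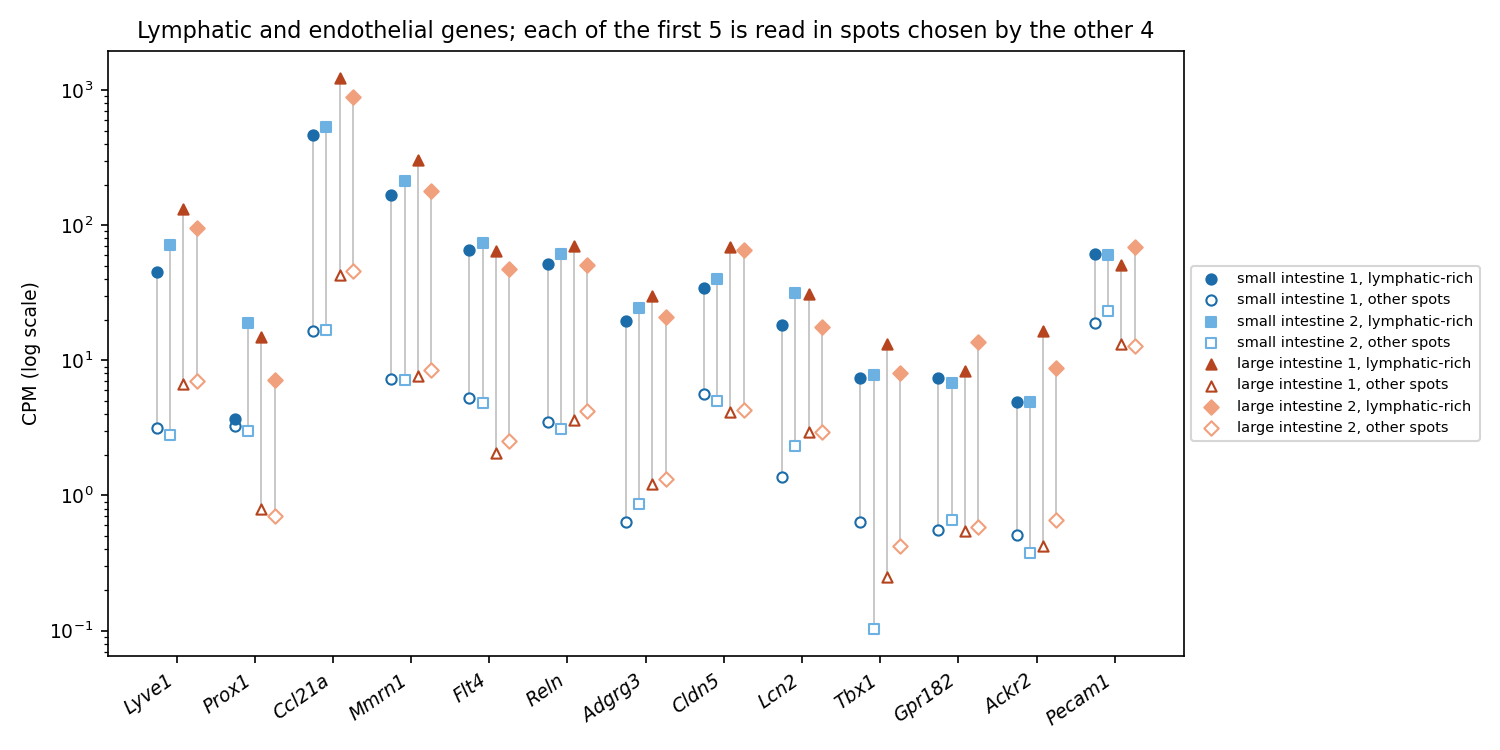
CPM (log scale) of the 5 marker genes, each read in spots chosen by the other 4, and of 8 endothelial or accompanying genes in the lymphatic-rich spots (filled) and other spots (open) of each section. Prox1 in small intestinal section 1 is the one pair whose levels nearly coincide, at 3.67 and 3.27 CPM.

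Lymphatic-rich and other spots were then compared across all genes. Of 15522 genes tested over the 4 sections, 2148 were higher (13.8%) and 3897 lower (25.1%) in lymphatic-rich spots at an adjusted p of at most 0.05, and the median gene differed by -0.09 on the log2 scale. The share of calls that were higher was 35.5%, and it moved with the scaling. It was 67.0% with library size alone in the same test, which moved the median of all genes to 0.29. With DESeq2, which changes both the size factors and the test, it was 46.4% with a median of 0.32. It was 47.8% where at least 2 marker UMIs were asked for with no ranking.

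The genes most raised beside the markers included several known from lymphatic and other endothelium. Adgrg3, an adhesion G protein-coupled receptor gene at chr8:95017113-95045250, had the largest difference of the genes named over 4 sections, which needed at least 50 UMIs observed or expected in lymphatic-rich spots. It stood at 19.6, 24.5, 29.9 and 20.9 CPM against 0.637, 0.860, 1.22 and 1.32, higher by 4.14 ± 0.28 (adjusted p = 4.023e-08). Reln, at chr5:21884454-22344705, encodes the secreted glycoprotein reelin, which lymphatic endothelium is known to make. It had 51.4, 61.7, 70.6 and 50.7 CPM against 3.48, 3.13, 3.62 and 4.25, higher by 3.63 ± 0.18 (adjusted p = 4.865e-09). Cldn5, the claudin of endothelial tight junctions at chr16:18776847-18778262, had 34.3, 40.1, 69.0 and 65.2 CPM against 5.65, 4.99, 4.12 and 4.30, higher by 3.10 ± 0.21 (adjusted p = 4.401e-08). For all of these genes the lowest lymphatic-rich section lay above the highest level of the other spots. Reln UMIs were spread over 30, 36, 44 and 41 lymphatic-rich spots, with at most 8 in any of them.

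Lcn2, which encodes the siderophore-binding protein lipocalin 2, was higher by 2.95 ± 0.27, at 18.4, 31.3, 30.7 and 17.7 CPM against 1.36, 2.34, 2.95 and 2.94. Enpp2, the gene of autotaxin, which makes lysophosphatidic acid, was higher by 2.66 ± 0.18. It reached 107 and 73.2 CPM in the large intestinal sections and 39.2 and 33.3 in the small intestinal ones, against 5.57 to 9.11 in the other spots. Dtx1, a ubiquitin ligase gene of the Notch pathway, was higher by 2.59 ± 0.28, and Apold1, an endothelial gene, by 2.50 ± 0.26. Id4, an inhibitor of helix-loop-helix transcription factors, was higher by 2.49 ± 0.16, and Lmcd1, a LIM domain gene, by 2.48 ± 0.26. The adjusted p-values of these 6 genes by edgeR's test lay between 2.44e-08 and 4.371e-06.

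The genes with the largest deficits over 4 sections included Slc9a3 and Clca4b. Slc9a3, the sodium-proton exchanger of the brush border, was lower by a log2 difference of -3.63 ± 0.22, at 4.90, 5.87, 9.14 and 6.44 CPM against 31.5, 36.0, 83.6 and 91.1. Clca4b, a member of the calcium-activated chloride channel regulator family, had 146, 208, 59.8 and 67.6 CPM against 1033, 1225, 476 and 470. Its log2 difference was -3.15, and that of Clca4a, a close relative with which it may share reads, was -3.19. Cyp2c55, a cytochrome P450 gene, held no UMI in the lymphatic-rich spots of small intestinal section 1, and 2.94, 9.14 and 4.83 CPM in the other 3 sections against 10.4, 67.9 and 69.8. Cldn8, a claudin gene, stood at -3.18 and Cdkn2b, a cell-cycle inhibitor gene, at -3.07. H2-Q1, Ifit1bl1, Tubal3 and Hao2 completed the 10 lowest, between -3.50 and -3.13. Cldn8 and Hao2 were scarce in the small intestine, with at most 3.44 CPM in either class of its sections.

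The lymphatic-rich spots were also rich in smooth muscle RNA, which lies beside every result that follows. All 10 of 10 smooth muscle genes were higher, with a median log2 difference of 1.25, against the background of 13.8% of genes called higher. The list summed to 26548, 33294, 13293 and 13833 CPM in lymphatic-rich spots and to 12114, 16257, 2942 and 2872 in the others. None of its genes was at 0. The share of smooth muscle UMIs lay above the section's median in 85 of 91, 104 of 107, 105 of 105 and 108 of 108 lymphatic-rich spots. Myh11, the smooth muscle myosin heavy chain gene, had 2199, 2907, 1019 and 1091 CPM against 978, 1427, 245 and 231, higher by 1.25. For this reason each lymphatic-rich spot was also compared with the 5 other spots of its section that were nearest to it in smooth muscle share. In that comparison Myh11 differed by -0.03 and Acta2, the smooth muscle actin gene, by 0.13, and 0 of 10 smooth muscle genes were called in either direction by edgeR.

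Against these muscle-matched spots, 738 of 12946 genes were higher (5.7%) and 1323 lower (10.2%). Of the 2024 genes higher in the first comparison and tested in both, 605 were higher here too, 29.9% of the first list and 82.0% of the second. Of 3786 lower genes, 1174 were lower here too, 31.0% and 88.7%. In 24 genes called higher in the first comparison the call was lower against matched spots. The held-out markers were still higher, by 2.52 for Lyve1, 2.92 for Ccl21a, 3.07 for Mmrn1, 2.63 for Flt4 and 1.63 for Prox1. Reln stood at 2.85, Adgrg3 at 2.83, Lcn2 at 2.06, Apold1 at 1.98, Dtx1 at 1.89, Cldn5 at 1.77, Enpp2 at 1.39 and Id4 at 1.24. All of these were called higher with matched spots, so that a difference of this size was present at equal smooth muscle share.

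**Figure D2:**
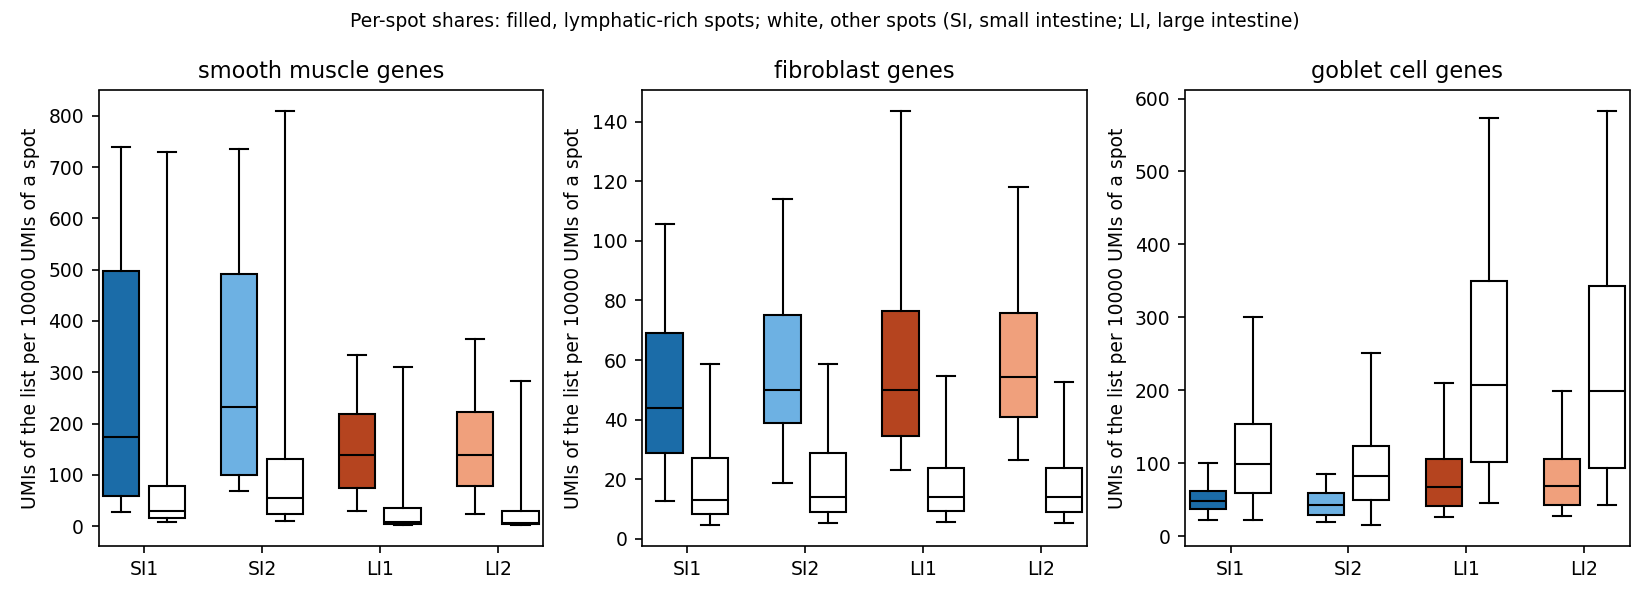
Share of smooth muscle, fibroblast and goblet cell genes per 10000 UMIs of a spot in lymphatic-rich (filled) and other (white) spots of each section. Boxes span the 25th to 75th percentile with the median, and whiskers the 5th to 95th. Median smooth muscle shares were 173, 231, 139 and 139 per 10000 in lymphatic-rich spots and 28.5, 54.0, 7.15 and 6.57 in the others.

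Of 14 other lymphatic endothelial genes, 12 were higher and 1 was lower, with a median log2 difference of 1.55 and a background of 13.8% higher. In the small intestine 10 were higher and 2 lower, with backgrounds of 12.6% and 22.0%, and in the large 13 were higher, with a background of 13.0%. The summed level of the list was not above that of the other spots in the small intestine, at 544 and 679 CPM against 656 and 751, and was in the large, at 587 and 452 against 115 and 110. By share of UMIs 43 of 91 and 59 of 107 small intestinal lymphatic-rich spots lay above their section's median, and 99 of 105 and 101 of 108 large intestinal ones. Maf and Nts, the 2 members lower in the small intestine, gave most of the list's UMIs in its other spots. Sum and share there therefore follow these 2 genes more than the remaining members. Against muscle-matched spots 11 of the 13 tested were higher and none was lower, with a median of 1.25 and a background of 5.7% higher. Among receptors, Gpr182, an atypical chemokine receptor gene, was higher by 3.57 ± 0.37 and had 7.35, 6.85, 8.31 and 13.7 CPM against 0.552, 0.654, 0.549 and 0.587. Tek and Tie1, which encode the angiopoietin receptor and its partner, were higher by 1.94 and 1.76, and Angpt2, a ligand of Tek, by 1.62. Nrp2, the co-receptor for Vegfc, was higher by 1.42 but by 0.44 against matched spots. Pdpn, the gene of podoplanin, had 34.3, 32.3, 62.3 and 43.5 CPM against 10.2, 10.7, 13.4 and 12.8, higher by 1.48 ± 0.16. Among transcription factors, Sox18 was higher by 2.05 and Nr2f2 by 0.89. Foxc2, a factor of lymphatic valves, was higher by 3.48 ± 0.67 (adjusted p = 0.0006814) on only 1, 2, 3 and 5 UMIs. Nts, the gene of neurotensin, was the member that was lower, by -2.21, which rested on the small intestine. There it was far higher in the other spots, at 111 and 98.8 CPM, than in the lymphatic-rich ones, at 20.8 and 26.4. DESeq2 did not call Nts in the small intestine (-2.345 ± 1.173 SE, adjusted p = 0.1363). Large intestinal lymphatic-rich spots held 4 and 0 Nts UMIs, and it was not called there (1.08, adjusted p = 0.3147). Against matched spots Nts was not called (-0.44, adjusted p = 0.3421). It is also made by enteroendocrine cells of the small intestine. Maf, a transcription factor gene, was not called over 4 sections because its direction differed between tissues, as described below.

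All 10 of 10 pan-endothelial genes were higher, with a median of 1.51 and a background of 13.8%, and 7 of them against matched spots, with a median of 0.89 and a background of 5.7%. Pecam1, the gene of CD31, had 61.2, 60.7, 50.7 and 69.2 CPM against 18.8, 23.2, 13.2 and 12.7, higher by 1.51 ± 0.16. Cdh5, the endothelial cadherin gene, was higher by 1.53 and Ramp2, a co-receptor for adrenomedullin, by 1.66. Of 13 genes of blood capillaries, arteries and veins, 10 were higher, with a median of 1.39, and 4 of 12 against matched spots. Gja5, an arterial connexin gene, was higher by 2.46 ± 0.41, but by 0.80 against matched spots, where it was not called (adjusted p = 0.178). Plvap, of fenestrated capillaries, was higher by 0.76 and Kdr, the main receptor for Vegfa, by 1.40. Flt1, a further receptor of this family, differed by 0.28 (adjusted p = 0.371). Blood endothelial genes therefore accompanied the lymphatic ones, and the part of blood vessels within the spots in the levels of the shared endothelial genes was not tested.

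Of 7 tested genes of lymphatic growth signalling, 3 were higher and 2 lower, with a median of 0.80, against backgrounds of 13.8% higher and 25.1% lower. Against muscle-matched spots 1 of 6 was higher and 1 lower, with a median of -0.03 and backgrounds of 5.7% and 10.2%. Calcrl, the adrenomedullin receptor gene, was higher by 1.49 and had 35.5, 30.3, 29.9 and 31.4 CPM against 6.97, 9.01, 10.1 and 8.52. The ligand genes Vegfc and Vegfd were higher by 1.21 and 0.98, while Vegfa differed by -1.19 and Adm, the gene of adrenomedullin, by -1.93, both lower. With matched spots Vegfc was not called (0.76, adjusted p = 0.06473), nor were Vegfd (-0.09, adjusted p = 0.8791) and Adm (-0.88, adjusted p = 0.1062). Vegfc held 6, 3, 17 and 21 UMIs in the lymphatic-rich spots, which limits the precision of its level in the small intestine.

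Of 15 secreted factors of the stem cell niche 10 were higher and 1 was lower, with a median of 1.54 and backgrounds of 13.8% and 25.1%. Against matched spots 7 of 11 were higher, with a background of 5.7%. Rspo3, a Wnt-amplifying R-spondin, had 33.1, 30.3, 28.2 and 23.3 CPM against 6.20, 6.71, 2.40 and 2.94, higher by 2.40 ± 0.23 (adjusted p = 1.139e-06) and by 0.94 against matched spots. Fgf10, a fibroblast growth factor gene, was higher by 2.24 ± 0.33 and was seen mainly in the large intestine, with 25 and 18 UMIs there and 2 and 1 in the small intestine. Igf1 was higher by 1.35 and Cxcl12, a chemokine of stromal cells, by 1.14. Wnt2 was higher by 2.49 ± 0.65 (adjusted p = 0.006589) on 1, 0, 3 and 7 UMIs. Without large intestinal section 2 it was not called (adjusted p = 0.2671). Wnt4 was the member that was lower, at -1.59 ± 0.47, with 1, 0, 3 and 5 UMIs.

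Fibroblast genes were higher in 9 of 10 cases, with a median of 1.49, and 9 also against matched spots, with a median of 0.66 and a background of 5.7%. Dcn, the gene of the matrix protein decorin, had 642, 712, 881 and 839 CPM against 178, 175, 164 and 163, higher by 1.80 ± 0.11. Mfap5, a microfibril gene, was higher by 1.99, and Pdgfra, a receptor gene strongest in fibroblasts beneath the epithelium, differed by 0.18 (adjusted p = 0.3906). All 7 of 7 submucosal and crypt-base fibroblast genes were higher, with a median of 1.89, and 5 against matched spots. Grem1, which encodes a secreted antagonist of bone morphogenetic proteins, was higher by 2.14 and Sfrp1, a secreted Wnt antagonist gene, by 1.89. Pi16, a gene of fibroblasts around vessels, was higher by 2.11, and by 0.28 against matched spots, where it was not called (adjusted p = 0.2807). Of 7 villus and subepithelial fibroblast genes 2 were higher and 1 lower, with a median of -0.55, beside the backgrounds of 13.8% and 25.1%. Against matched spots 1 of 6 was higher, with a median of 0.12. The summed level of that list was nonetheless above that of the other spots, at 295, 331, 176 and 177 CPM against 176, 197, 104 and 99.9, and 70 of 91, 74 of 107, 78 of 105 and 79 of 108 lymphatic-rich spots lay above the section's median share. Pericyte genes were higher in 5 of 6 cases, and in 0 against matched spots.

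**Figure D3:**
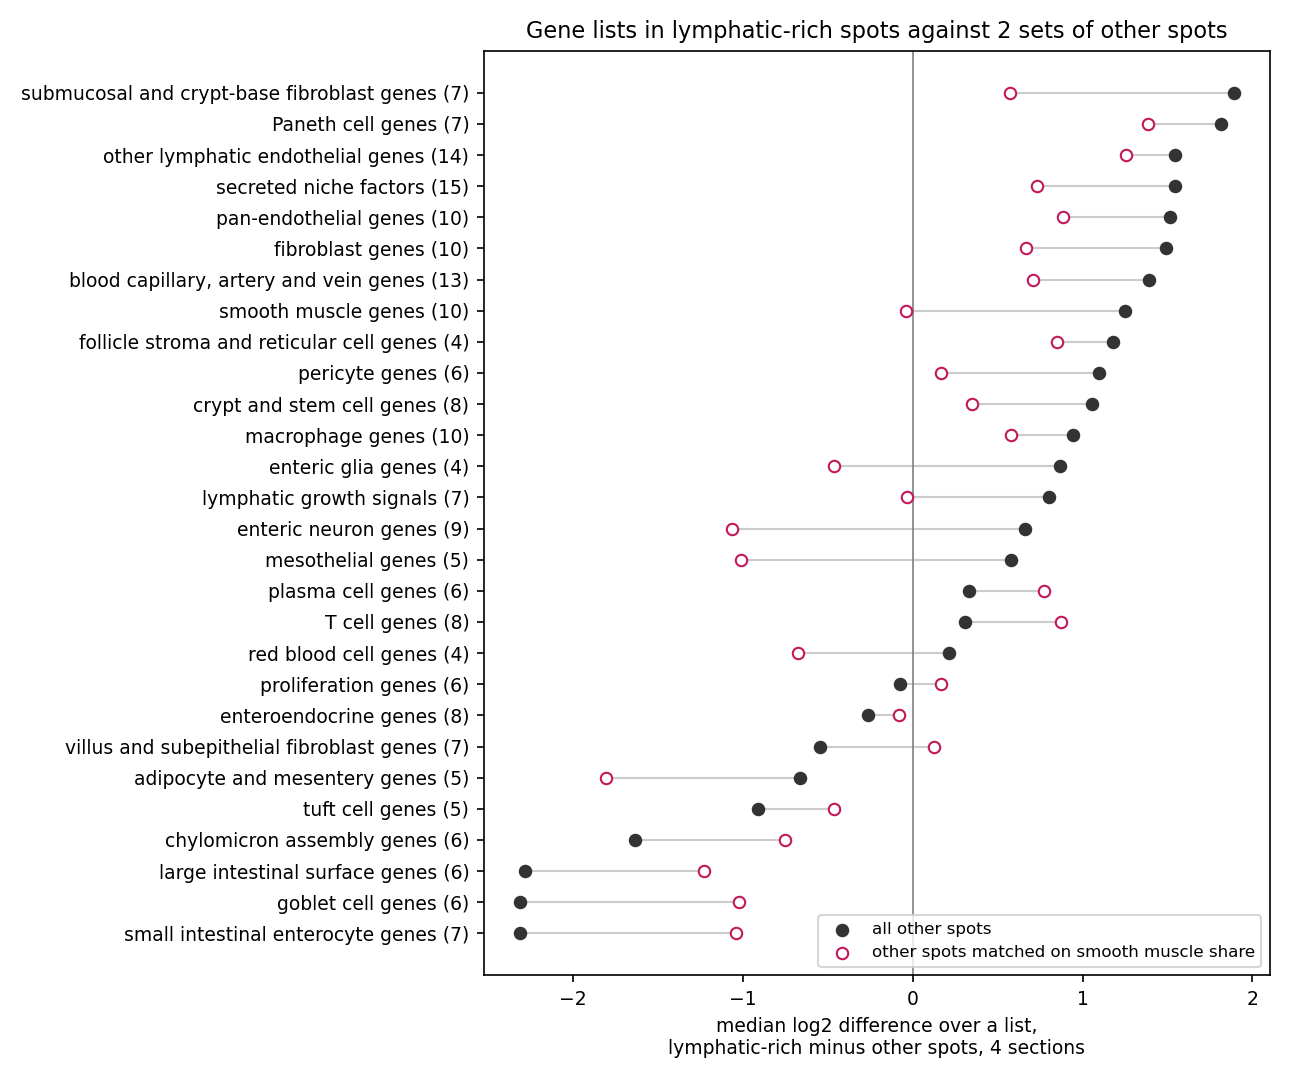
Median log2 difference over each gene list between lymphatic-rich spots and all other spots (filled) or other spots matched on smooth muscle share (open), with the number of genes tested against all other spots in brackets. Fewer genes of some lists could be tested against matched spots. Smooth muscle genes, on which the match was made, move from 1.25 to -0.04, and the other lymphatic endothelial genes from 1.55 to 1.25.

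Enteric neuron genes were higher in 4 of 9 cases against all other spots, with a median of 0.66 and a background of 13.8%. Against matched spots none was higher and 7 were lower, with a median of -1.06, where 5.7% of all genes were higher and 10.2% lower. Elavl4, a neuronal RNA-binding protein gene, was one whose sign turned, from 0.34 (adjusted p = 0.3666) to -1.38, and Uchl1, which was not called without small intestinal section 2 (adjusted p = 0.1107), turned from 0.70 to -0.88. Vip, the gene of vasoactive intestinal peptide, was higher by 1.96 ± 0.39, with 109, 698, 77.3 and 356 CPM against 61.9, 64.7, 39.7 and 28.6. Few spots carried it. In small intestinal section 2, 313 of the 713 Vip UMIs came from 1 spot, in large intestinal section 2 181 of 442, and in each section 5 spots held 66.3% to 92.5% of them. Against matched spots Vip differed by 0.34 (adjusted p = 0.5077). With other spots matched on total UMIs instead, Vip (1.218) and Uchl1 (0.1545) were not called.

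Of the macrophage genes 8 of 10 were higher with a median of 0.94, and 8 of 10 against matched spots with a median of 0.58, where the backgrounds were 13.8% and 5.7%. Against matched spots 3 of 10 were called higher in the small intestine (median 0.52) and 7 of 10 in the large (median 0.61). Fewer of all genes were called higher there in the small intestine as well. T cell genes were higher in 2 of 8 cases, plasma cell genes in 2 of 6 and dendritic cell genes in 1 of 5. Against matched spots these were 2 of 7, 4 of 6 and 1 of 2. By tissue, 4 of 8 T cell genes were higher in the large intestine (median 0.85), with a background of 13.0%. In the small 0 were higher and 2 lower (median -0.56), where 12.6% of all genes were higher and 22.0% lower. The 2 lower genes were thus near the share of all genes. Cd163 and Mrc1, receptors of tissue-resident macrophages, were higher by 2.06 and 1.28, and C1qb, a complement gene, by 0.97. Cd163, Mrc1 and C1qb were also called higher in spots chosen without Lyve1, which can mark macrophages too. Lyve1 gave at most 7.88% of the marker UMIs of lymphatic-rich spots in any section, and the rule without it chose 89, 104, 105 and 108 spots. Leaving it out could therefore change little, and the part of Lyve1-positive macrophages was not tested. B cell genes were higher in 4 of 8 cases over 4 sections and in 2 of 2 against matched spots. In the large intestine 5 of 8 were higher, with a background of 13.0%, and in the small 0 of 8, with a background of 12.6%. Cd79a, of the B cell receptor, had 38.2 and 28.2 CPM against 12.5 and 12.2 in the large intestinal sections, higher by 0.95. Without large intestinal section 1 this was 0.72 and not called, and with at least 2 marker UMIs and no ranking it was -0.0014 and not called. Ccr7, the receptor for the Ccl21a product, had 13 UMIs in each large intestinal section, at 10.8 and 10.5 CPM against 1.27 and 0.939, higher by 2.80 (adjusted p = 8.031e-08). These came from 5 of 105 and 9 of 108 spots, and 1 spot in each section held 46.2% and 30.8% of them. In the small intestine it held 3 and 0 UMIs. The B cell share of 38 of 105 and 31 of 108 large intestinal lymphatic-rich spots lay in the top 10% of their section, against 12 of 91 and 14 of 107 in the small intestine. Of the follicle stroma genes, 2 of 4 tested were higher. These were Ccl19, the other ligand of Ccr7, at 2.50, and Madcam1, the vascular addressin gene, at 1.72. With matched spots 0 of 4 were higher, with Ccl19 at 1.18 (adjusted p = 0.05864) and Madcam1 at 0.94 (adjusted p = 0.06873). Bst1, another gene of this list, was lower in the small intestine (-1.49) and higher in the large (1.40).

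Among epithelial genes, those of Paneth cells at the crypt base were higher in the small intestine, 7 of 7 with a median of 1.84 and a background of 12.6%. In the large intestine 1 of 7, Lyz1, was higher and 2 were lower, near the backgrounds of 13.0% and 27.7%. The median there was -2.09, and the list summed to 371 and 305 CPM against 1174 and 996. The 4-section count of 5 of 7 higher, and of 6 of 7 against matched spots, where the background was 5.7%, therefore rested on the small intestine. Lyz1, the Paneth cell lysozyme gene, had 10480 and 8972 CPM against 2747 and 1672 in the small intestinal sections, higher by 1.91 ± 0.08. Paneth cell RNA summed to 147340 and 109198 CPM in the small intestinal lymphatic-rich spots and to 41513 and 21672 of the others. Defensin genes are near-identical copies, among which reads may be split. Of 8 crypt and stem cell genes 6 were higher, with a median of 1.05, and 2 of 7 against matched spots, with backgrounds of 13.8% and 5.7%. Lgr5, the stem cell receptor gene, was higher by 1.17 ± 0.28, at 14.7, 16.6, 9.97 and 9.66 CPM against 8.84, 6.88, 2.30 and 2.02. It remained higher against matched spots at 0.83 (adjusted p = 0.02608). Olfm4 was higher by 1.15 in the small intestine and held no UMI in large intestinal lymphatic-rich spots, and Smoc2 was higher by 0.98, but not called against matched spots (0.25, adjusted p = 0.1262). Of the proliferation genes 1 of 6 was higher and none lower, near the 13.8% of all genes called higher, with a median of -0.07.

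Genes of the villus and the surface were lower. All 7 of 7 small intestinal enterocyte genes, 6 of 6 chylomicron assembly genes, 6 of 6 large intestinal surface genes and 6 of 6 goblet cell genes were lower, against the background of 25.1%. Their medians were -2.32, -1.64, -2.28 and -2.32. By tissue, 2 of 7 enterocyte genes were lower in the large intestine, near the background of 27.7%, and 5 of 6 chylomicron genes. In the small intestine 5 of 6 large intestinal surface genes were lower, with a background of 22.0%. Against matched spots 6 of 7 enterocyte, 6 of 6 chylomicron, 6 of 6 surface and 4 of 6 goblet cell genes were lower, with a background of 10.2%. Fabp2, a fatty acid-binding protein gene of enterocytes, had 648 and 726 CPM against 3957 and 4657 in the small intestinal sections, with a log2 difference over 4 sections of -2.97 ± 0.12. Apob, the apolipoprotein around which chylomicrons are built, stood at -2.74 and Krt20, a keratin gene of mature surface cells, at -2.58. Zg16, a goblet cell gene, had 523, 529, 1659 and 1547 CPM against 2424, 2437, 7446 and 8042. Of the small intestinal lymphatic-rich spots, 9 of 91 and 15 of 107 lay above their section's median share of enterocyte genes, so that few of them held as much villus RNA as a typical spot. All 4 medians were closer to 0 against muscle-matched spots, as the plot of gene lists shows.

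The lymphatic-rich spots differed among themselves. Spots were put in order of their marker content, with 0, 1 or at least 2 marker UMIs among the spots not chosen, and 1 or 2, 3, or 4 or 5 different markers seen among the chosen. In small intestinal section 2 Reln stood at 1.74, 4.49, 13.6, 28.2, 68.9 and 78.1 CPM along this order, and in large intestinal section 1 at 2.54, 2.99, 8.76, 16.1, 54.7 and 107. Spots with 2 or more marker UMIs that missed the cut therefore already held more Reln than those without a marker UMI. In small intestinal section 1 and large intestinal section 2 the chosen classes had no such order, at 52.1, 32.6 and 83.6, and at 56.9, 51.8 and 46.1. Acta2 stood at 248, 526 and 1570 CPM in the spots of large intestinal section 1 that were not chosen, and at 3119, 2480 and 2582 in its chosen classes. In the chosen classes of small intestinal section 2 it stood at 6321, 6006 and 4557. In each section the chosen spots with 1 or 2 markers seen had the highest Acta2 level. These are levels of single sections with counting error only. In each section the chosen spots with 4 or 5 markers seen were deeper on average than those with 1 or 2. Depth was not matched along this order, so depth and marker content cannot be told apart here.

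**Figure D4:**
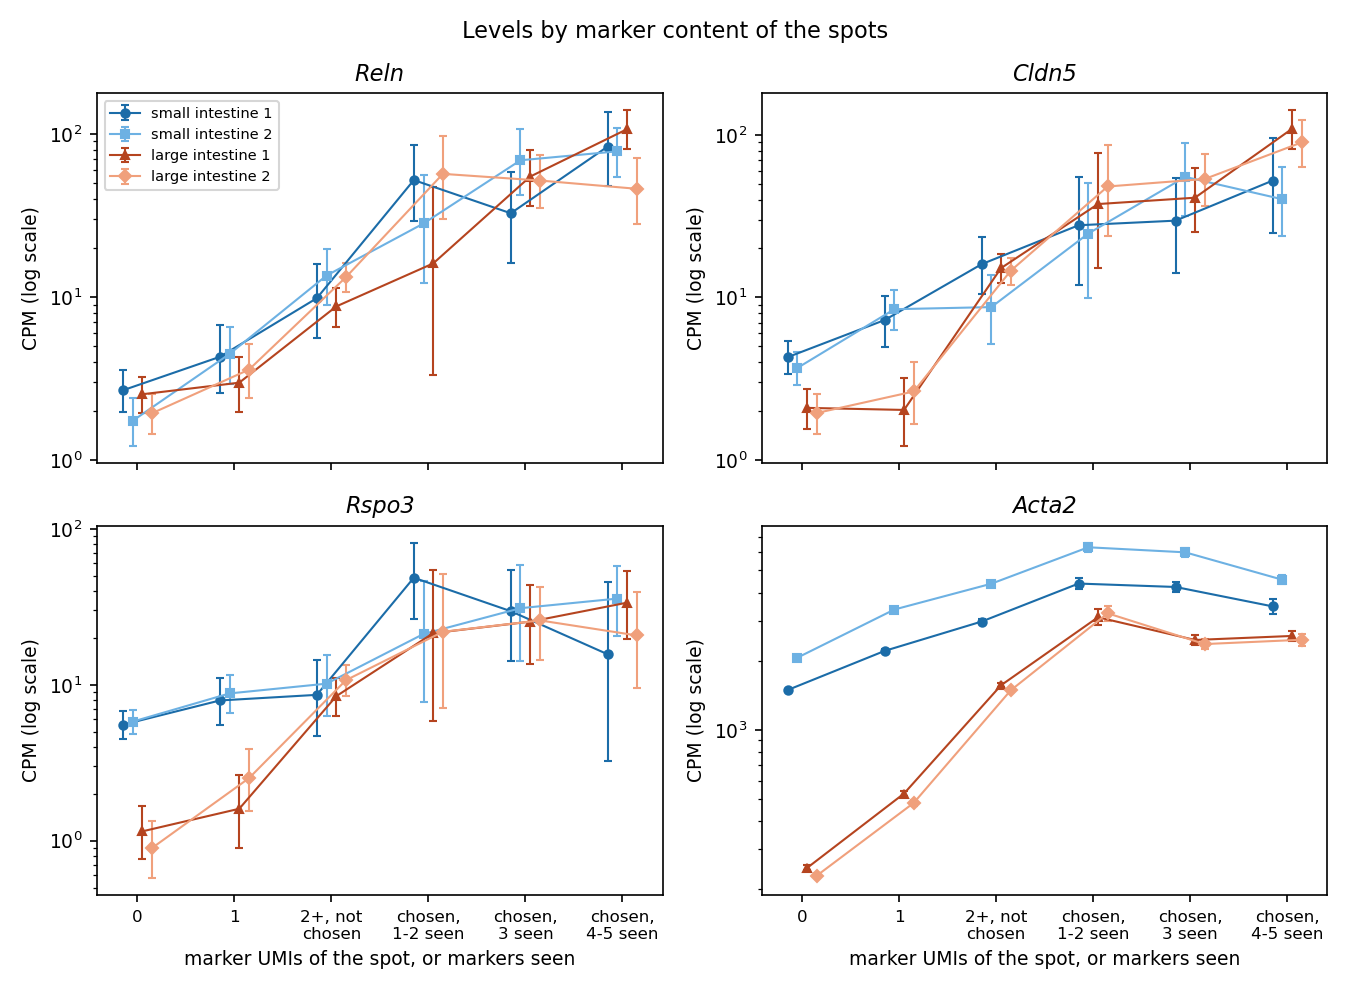
CPM (log scale) of Reln, Cldn5, Rspo3 and Acta2 by the marker content of the spots, from 0 marker UMIs to lymphatic-rich spots with 4 or 5 markers seen; bars are exact 95% Poisson intervals, which cover counting error only. Reln in large intestinal section 1 climbs from 2.54 to 107, and Acta2 in small intestinal section 2 goes from 6321 to 4557 over the chosen classes.

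Lymphatic-rich spots within thick muscle could be set apart by a smooth muscle share in the top 10% of the section. In the small intestine these were 13 spots in each section, with 2 and 4 Reln UMIs, or 16.7 and 25.7 CPM. The remaining lymphatic-rich spots there had 57.4 and 68.1. The exact 95% Poisson intervals of these pairs were 2.02 to 60.4 against 41.0 to 78.2 and 7.01 to 65.9 against 51.8 to 87.9, which overlap. In the large intestine the values were 65.6 and 61.6 in the muscle-rich and 71.7 and 47.1 in the remaining spots. Large intestinal lymphatic-rich spots with a B cell share in the top 10% held Reln at 91.5 and 64.6 CPM, against 57.7 and 45.5 in the rest, again with overlapping intervals.

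Whether the company of the markers differed between tissues was tested as the difference of the 2 log2 differences, small minus large intestine. Each tissue was on its own sections, so that tissue and section cannot be told apart, and which mice the sections came from is not given in the sources used here. In the small intestine 1962 genes were higher (12.6%) and 3412 lower (22.0%), and in the large intestine 2018 (13.0%) and 4303 (27.7%). The difference was higher in the small intestine for 722 genes (4.65%) and higher in the large for 611 (3.94%). With DESeq2 and with library size alone the larger of these counts was that of the large intestine, as given in the closing section. Without small intestinal section 2 the small intestinal counts were 1046 and 2118. Without large intestinal section 1 the large intestinal count of higher genes was 1200, and without section 2 it was 1176.

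Among genes with at least 25 UMIs observed or expected in the lymphatic-rich spots of a tissue, those with the largest excess in the small intestine were Adgrg3 at 4.59, Reln at 3.84, Lcn2 at 3.46, Lbp at 2.83 and Defa36, a Paneth cell defensin gene, at 2.58. DESeq2 did not call Defa36 (2.74 ± 3.74 SE, adjusted p = 0.6666). Lbp encodes the lipopolysaccharide-binding protein and had 15.9 and 25.5 CPM against 3.10 and 1.96. In the large intestine Lbp stood at 42.4 and 24.9 against 14.0 and 12.7, and the tissue difference was 1.97 (adjusted p = 6.116e-06). Without small intestinal section 2 that difference was 1.30 and not called (adjusted p = 0.137), nor was it against muscle-matched spots (1.41, adjusted p = 0.07577). The lowest genes of the small intestine were Ocm at -3.44, Ccdc152 at -3.43, Tubal3 at -3.33, Lrrc19 at -3.30 and Plk3 at -3.28. Against muscle-matched spots Ocm (-1.80, adjusted p = 0.06272) and Ccdc152 (-1.60, adjusted p = 0.07532) were not called.

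In the large intestine the largest excess among such genes was that of Tbx1, a T-box transcription factor gene, with 13.3 and 8.05 CPM against 0.250 and 0.423, a log2 difference of 4.48. It was 4.24 in the small intestine as well, where Tbx1, Ackr2 and Gpr182 each had fewer than 25 such UMIs. Ackr2, a scavenging chemokine receptor gene known from lymphatic endothelium, was higher by 4.06 in the large and 3.20 in the small intestine. Gpr182 and Adgrg3 followed at 3.79 and 3.84. Cyp4b1, a cytochrome P450 gene, had 23.3 and 14.5 CPM against 0.599 and 0.751, higher by 4.31. In the small intestine its lymphatic-rich level was close to this, at 23.3 and 18.6, but its other spots stood at 8.92 and 13.0, so that the difference there was 0.64 (adjusted p = 0.08879). Against muscle-matched spots it was called higher there, by 1.65 (adjusted p = 0.0004162). The tissue difference of Cyp4b1 was -3.68 (adjusted p = 1.319e-14). With matched spots that difference was -1.12 and not called (adjusted p = 0.3155). The lowest genes of the large intestine were H2-Q1 at -4.63, Dhrs9 at -4.37, Slc9a3 at -3.96, Sptssb at -3.94 and Cyp2c55 at -3.77.

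Maf, a transcription factor gene of lymphatic endothelium and of other cells, went in opposite directions. It stood at 141 and 173 CPM against 423 and 497 in the small intestinal sections, a log2 difference of -1.82, and at 97.2 and 77.3 against 18.8 and 18.8 in the large intestinal ones, a difference of 1.75. The other spots differed far more between tissues than the lymphatic-rich ones did, and the tissue difference was -3.57 (adjusted p = 1.13e-90). Grem1 was higher in both tissues, by 1.49 in the small and 2.84 in the large intestine, as was Tie1, by 1.08 and 2.33. Smooth muscle moved in the same way, with a median over the list of 0.78 in the small and 1.70 in the large intestine, and its part in these differences was not tested. The tissue difference of Tie1 was -1.24 (adjusted p = 0.01704). It was not called against spots matched on smooth muscle (-0.25, adjusted p = 0.8964) or on total UMIs (-0.49, adjusted p = 0.6141), nor without small intestinal section 2 (adjusted p = 0.1287) or large intestinal section 1 (adjusted p = 0.4821).

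The sorted cells asked whether the genes that accompany the markers in spots were also found in cells that carry them. Cells entered if 500 or more genes were seen and no more than 20% of UMIs were mitochondrial, and those with UMIs of at least 3 of the 5 marker genes numbered 390 of 2756 in the small and 233 of 6188 in the large intestine. The sort for lymphatic cells sets these shares. With 1 library per tissue there is no test, and the 95% Poisson intervals cover counting error only. The marker cells had a median of 3801 and 3171 UMIs, against 17821 and 22653 in the remaining cells.

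Reln, Adgrg3 and Cldn5 were concentrated in the marker cells. Reln stood at 722 (694 to 751) CPM in the small intestinal marker cells and 2.83 (2.39 to 3.34) of the remaining cells, and at 553 (516 to 591) and 0.644 (0.514 to 0.796) in the large intestine. Adgrg3 had 297 (279 to 316) and 234 (211 to 260) CPM in marker cells, against 0.399 and 0.182. Cldn5, Lcn2, Dtx1, Apold1, Lbp, Tbx1 and Cyp4b1 also were higher in marker cells, by log2 differences between 5.50 and 9.06 in the tissues. Maf had 624 and 610 CPM in marker cells, against 112 and 8.57, so that in this measure both tissues went the same way. Of the niche factors, Rspo3 had 130 (118 to 142) and 42.7 (32.9 to 54.4) CPM in marker cells, against 1.44 and 0.886. Wnt2 had 78.3 (69.2 to 88.1) and 11.2 (6.50 to 17.9), against 0.220 and 0.621.

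Other genes that were higher in the spots had low levels in the marker cells. Grem1 had 0.288 and 18.4 CPM in them, against 5.77 and 7.60 in the remaining cells, and in the large intestine its 28 UMIs came from 0.429% of the marker cells. Enpp2 had 5.18 and 7.22 CPM on 18 and 11 UMIs, against 1.14 and 2.01. Id4 stood at 4.60 and 7.88 CPM in marker cells against 5.55 and 10.7, log2 differences of -0.27 and -0.44. Dcn and Acta2 were lower in marker cells, by -5.39 and -3.24 in the small and -2.64 and -2.37 in the large intestine. Among the genes raised in lymphatic-rich spots, Reln, Adgrg3, Cldn5 and Rspo3 were thus higher in the marker cells of both tissues, and Id4 was not.

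**Figure D5:**
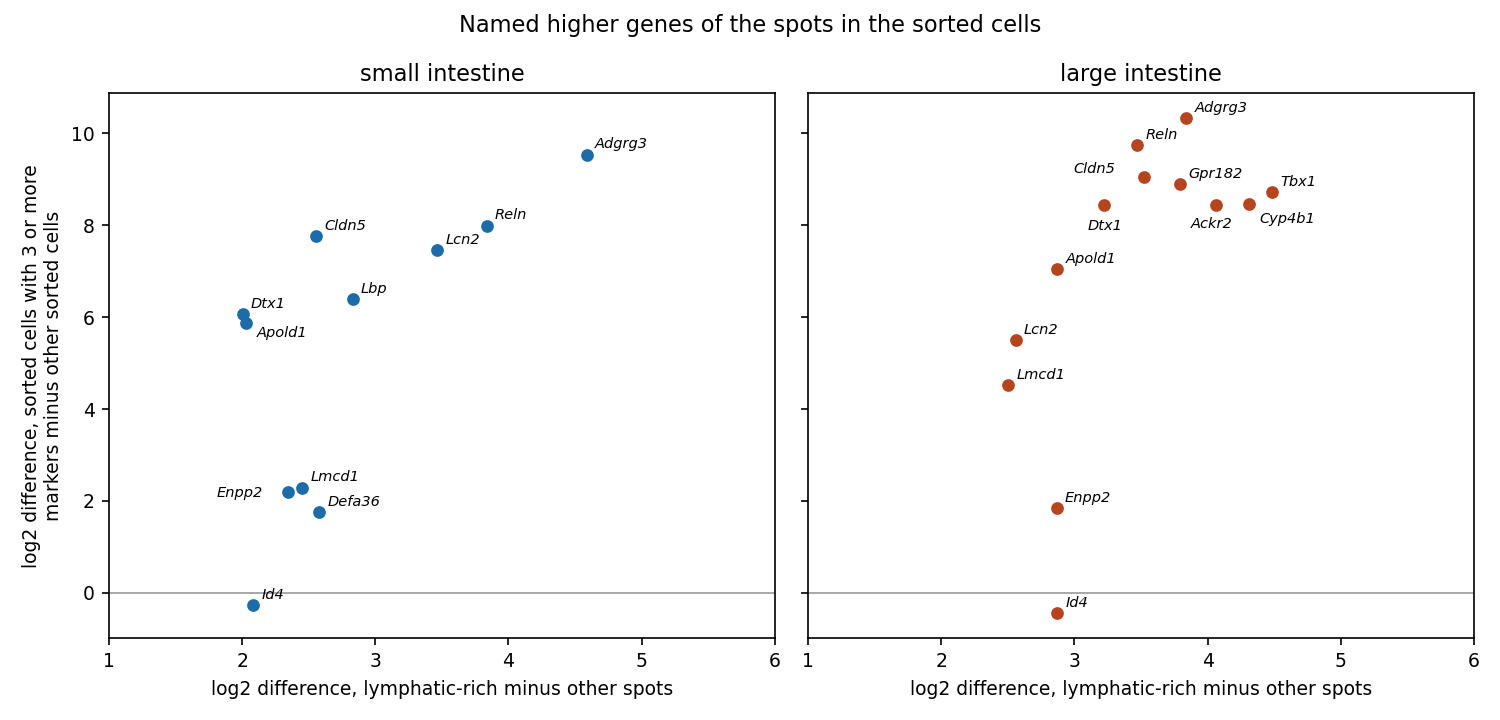
Log2 difference of the named higher genes in spots (horizontal axis) and between sorted cells with at least 3 markers and the remaining sorted cells (vertical axis), for genes with at least 10 UMIs in the marker cells. Adgrg3 lies at 4.59 and 9.54 in the small intestine, and Id4 is the gene below 0 in both tissues.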

How the data were processed

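Raw counts of UMIs per gene and spot or cell were deposited by the authors as matrices with no normalization. The submitters' processing notes name Cell Ranger 6.0.1 and the build mm10, and per the file headers spaceranger 1.2.1 wrote the spot matrices. The files list 32285 genes, of which 32158 identifiers matched a name table; positions are those of GRCm38.p6 gene models. Counts were summed per section and spot class and tested with edgeR 4.0.16 (R 4.3.3; filterByExpr, TMM, quasi-likelihood test, section as block, adjusted p at most 0.05), first over 4 sections and then per tissue and for their difference; the code was tested on simulated data. The sorted cells were summed in the same way with no test. DESeq2 1.42.0, other scalings, filters, spot rules and comparison spots were alternatives, and the comparison with muscle-matched spots was added after seeing the data. Depth was 816577 to 1242496 UMIs per section in the lymphatic-rich spots, which leaves genes of a few UMIs imprecise; intervals at 95% and the floor of 3 counts cover counting error only. No doublet caller was run on the sorted cells, and the organoid libraries were not used here.

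The named genes are the 10 largest log2 differences each way over 4 sections, the 5 each way per tissue and the 5 each way for the tissue difference. They needed an adjusted p of at most 0.05, the same direction in every section of the comparison (not asked for the tissue difference), and at least 50 UMIs over 4 sections or 25 in a tissue, observed or expected in the lymphatic-rich spots. Rule markers, sex-linked, mitochondrial, ribosomal and unnamed genes were left out, and 1 gene that met the rule is not reported here. To these come the genes of 33 lists with 243 genes. The spots, members and lists were chosen with earlier results of these data known. Sections of equal number share only a number.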

Additional observations from a re-analysis of the deposited data

Results flagged for a closer look

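The genes below differed in log2 difference between tissues by the test of that difference in edgeR, given as small minus large intestine with its adjusted p, and each tissue was on its own sections, so that tissue and section cannot be told apart. Cxcl10, a chemokine gene, had -4.14 (adjusted p = 3.794e-11), from -2.79 in the small to 1.35 in the large intestine. Its UMIs in large intestinal lymphatic-rich spots came from 9 and 12 spots, and 1 spot in each section held 32 of 61 and 32 of 49 of them. Rhebl1 had -4.18 (adjusted p = 8.082e-10), lower in the small and higher in the large intestine. Maf had -3.57 (adjusted p = 1.13e-90) and was still different against muscle-matched spots, at -1.73 (adjusted p = 3.578e-12). Pnliprp2, a pancreatic lipase-related gene, had 3.80 (adjusted p = 4.639e-12), with 1112 and 1020 CPM in small intestinal lymphatic-rich spots against 413 and 336 in the other spots there, a log2 difference of 1.25. Its large intestinal log2 difference was -2.56, on 1 and 2 UMIs in lymphatic-rich spots, or 0.831 and 1.61 CPM against 6.14 and 4.41.

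Wipf3 differed by -4.23 (adjusted p = 4.33e-09), Tnfaip8l3 by -4.15 (adjusted p = 1.008e-07) and Cyp4b1 by -3.68 (adjusted p = 1.319e-14). Against muscle-matched spots these 3 were not called, at -1.88, -1.56 and -1.12. In all 3 the other spots of the small intestine held more of the gene than those of the large. Lbp had 1.97 (adjusted p = 6.116e-06), A4gnt 4.57 (adjusted p = 0.006165) and Etnppl 3.98 (adjusted p = 0.02394), and all 3 lost their call without small intestinal section 2, at 1.30, 4.44 and -4.24. A4gnt and Etnppl also lost it without large intestinal section 1, at 3.56 and 2.86. Lbp (1.41) and A4gnt (4.50) were not called against muscle-matched spots, and A4gnt was 1.24 with the top 10% of spots and 0.82 with no ranking, also not called. Etnppl was not called with spots matched on total UMIs (3.10). Small intestinal section 1 held no Etnppl UMI in its lymphatic-rich spots.

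Grem1 had -1.35 (adjusted p = 3.648e-18), Tie1 -1.24 (adjusted p = 0.01704), Dtx1 -1.22 (adjusted p = 0.03718), Cldn5 -0.98 (adjusted p = 0.01933), Acta2 -0.97 (adjusted p = 2.772e-14) and Id4 -0.79 (adjusted p = 2.672e-05). All 6 were higher in lymphatic-rich spots of both tissues and more so in the large intestine. Against muscle-matched spots Grem1 was still different, at -0.67, and the other 5, among them Acta2 of the match itself, were not called. With other spots matched on total UMIs these 5 were not called either, with Tie1 at -0.49, Dtx1 at -0.48, Cldn5 at -0.40, Acta2 at 0.043 and Id4 at -0.06. DESeq2 did not call Cldn5, Dtx1 or Tie1. Cldn5 lost its call without small intestinal section 1 (-0.82) or either large intestinal section (-0.90 and -1.04), Dtx1 without either small intestinal section (-1.28 and -1.11) or large intestinal section 1 (-0.77), and Tie1 without small intestinal section 2 (-1.24) or large intestinal section 1 (-0.82). The 3 remaining genes with the largest tissue differences had no UMI in the lymphatic-rich spots of one tissue. Cd244a held 10, 7, 0 and 0 UMIs there, Btnl4 5, 4, 0 and 0, and Pla2g2d 0, 0, 4 and 1.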

How the results depend on the processing

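The 5 held-out markers were higher under every alternative run, with log2 values of 1.63 (Prox1, muscle-matched spots) to 5.61 (Mmrn1). Counts of called genes moved more, and which genes moved is not shown by a count; beyond fewer genes, spots or sections entering a fit, the cause was not tested. DESeq2 gave 2569 lower genes over 4 sections, 2097 in the small and 2018 in the large intestine, and tissue differences of 189 (higher in the small intestine) and 307 (higher in the large). Library size alone gave 4105 higher and 2023 lower, 3085 and 2231 in the small intestine, 4223 and 1875 in the large, and tissue differences of 325 and 945. With no filter on low counts 433 differences were higher in the small intestine, and with the top 10% of spots 1191. With no ranking 3331 genes were higher, 3000 in the small and 3891 in the large intestine, and 1549 differences were higher in the large. With other spots matched on total UMIs 2285 genes were lower, 1846 in the large intestine, and the tissue differences were 208 and 391. With muscle-matched spots, chosen after seeing the data, 738 were higher and 1323 lower, 431 and 780 in the small and 829 and 1372 in the large intestine, with tissue differences of 158 and 78.

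Leaving out each section in turn gave 1707 to 1869 higher and 3421 to 3671 lower genes over 4 sections, 1046 to 1783 and 2118 to 3327 in the small intestine, 1176 to 2113 and 3080 to 4602 in the large, and tissue differences of 330 to 667 and 267 to 581. In these fits a tissue with 1 section is assumed to vary like the other. Held-out ranges were 3.59 to 3.92 for Lyve1, 1.92 to 2.93 for Prox1, 4.26 to 4.52 for Ccl21a, 4.25 to 4.56 for Mmrn1 and 3.60 to 3.94 for Flt4.

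Among named genes the sign turned in 7 cases. With muscle-matched spots Myh11, a gene of the match itself, was -0.034, Elavl4 -1.38 and Uchl1 -0.88. With spots matched on total UMIs Elavl4 was -0.22. Cd79a in the large intestine was -0.0014 with no ranking. The tissue difference of Etnppl was -4.24 without small intestinal section 2 and up to 10.4 without another section, and that of Acta2 was 0.043 with spots matched on total UMIs. A further 67 values kept their sign and lost their call, 3 gained one (Elavl4 at 1.21 with no ranking and 0.93 with other spots of 0 marker UMIs, Pdgfra at 0.55 with library size alone), and 2305 kept their direction and their side of the threshold.

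Same-numbered sections of the tissues did not deviate together (r = -0.000911 over 5082 genes), so the numbers pair nothing. With the replicate block 1805 genes were higher and 3588 lower, 1772 and 3340 in the small intestine, 1803 and 4270 in the large, with tissue differences of 679 and 580, and the block ended the call of Etnppl. With the duplicates of a tissue summed to 1 sample 1791 genes were higher and 2896 lower. The alternative limited to spots below the section's median smooth muscle share was not run, because 6, 3, 0 and 0 lymphatic-rich spots lay there. Genes with a few UMIs in the lymphatic-rich spots, such as Foxc2, Wnt2 and Wnt4, are limited by depth.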
